A study of Mus musculus with 3 samples.

Results

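The regions recovered with the seRNA PAM over Itga7 and 7 other integrin genes were examined in mouse ASCs. The 8 genes were Itga7, Itgb1, Itga5, Itga6, Itga3, Itgav, Itgb5 and Itga11, of 22380 protein-coding genes in the GENCODE M1 annotation of mm9. A region was assigned to a gene when it overlapped the annotated span of the gene by at least 1 bp. By this rule the 8 genes held 14 of the 2112 odd regions and 3 of the 345 even regions, odd and even being the names of the probe pools. These are the lists of each pool alone. The paper reports a smaller set of regions bound by PAM, and which regions here belong to it was not examined. In ChIRP-seq, crosslinked cells are lysed and sonicated, and biotinylated probes antisense to an RNA are hybridized to the lysate. The probes are captured on streptavidin beads, and the DNA that comes down with the RNA is sequenced. The ASCs, activated satellite cells, came from hindlimb muscle of Tg:Pax7-nGFP mice, in which GFP is driven by Pax7, and were sorted by FACS and cultured with horse serum and FGF-Basic, without any treatment. The number and the age of the mice were not given. Cells were fixed with 1% glutaraldehyde for 10 min, 100 pmol of a pool was hybridized for 4 h at 37 °C, and 1 library per pool was sequenced. Hence no value here has a replicate error and no difference between genes or pools could be tested. The input library was not analysed here. Neither list holds expression values, so the label ASC could not be checked against marker genes, and no strand is given.

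Integrins are receptors of the plasma membrane made of an α and a β subunit, and they connect the extracellular matrix to the actin cytoskeleton. The β1 subunit, encoded by Itgb1, pairs with many α subunits. In skeletal muscle, the α7β1 integrin is a main laminin receptor at the sarcolemma and at the myotendinous junction, and satellite cells carry it on the side that faces the basal lamina.

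The 6 probes, each 20 nt long, are shown to allow their comparison with the recovered regions. Each was an exact antisense match to the spliced PAM transcript of GENCODE M1 (Gm12603, 3 exons, 618 nt). Probe 1 was at nt 65 to 84 and probe 6 at nt 543 to 562. The paper gives a greater length for the PAM transcript it cloned by RACE, which was not compared here. Which probe belonged to which pool is not given in the sources used here.
probe 1: gccagaaagaatggatgact
probe 2: gcattttcagtgggatcaca
probe 3: acctgccatctgctatcaaa
probe 4: tcttcacaaaccctcatgat
probe 5: acaagtacttcagctccatg
probe 6: gttctgatatgtaagctcct

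Against these probes, the longest exact match on either strand within the 14 odd regions was 5 to 9 nt, with a median of 8 nt, and over all odd regions it was 4 to 13 nt, with a median of 7 nt. The 3 even regions held matches of 7 to 8 nt, where the whole even list had 4 to 13 nt and a median of 8 nt. None of these 17 regions therefore held more than 9 of the 20 bases of a probe in 1 run. To the annotated PAM transcript, the longest match was 5 to 11 nt in the 14 odd regions and 9 to 10 nt in the 3 even regions. The median was 9 nt in both lists as a whole. None of the 8 genes was on chromosome 4, where PAM is located.

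The sequences below belong to regions in Itga7 and Itgb1 that covered an exon, and are shown because the position of the regions on exons was shared by all of them but the one in Itga6. All were read from the plus strand of mm9, on which both genes are transcribed, and capitals mark exon bases. The Itga7 sequences are the coding part of exon 1 covered by both pools (chr10:128371045-128371100), the whole odd regions on exon 13 (chr10:128381405-128381658) and exon 16 (chr10:128383803-128384056), and the start of the odd region on exon 26 (chr10:128394639-128394737). The Itgb1 sequences are the whole odd regions on exon 13 (chr8:131246704-131246957) and exon 14 (chr8:131248047-131248300).
Itga7 exon 1: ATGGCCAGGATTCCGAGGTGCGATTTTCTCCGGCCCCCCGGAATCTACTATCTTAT
Itga7 exon 13: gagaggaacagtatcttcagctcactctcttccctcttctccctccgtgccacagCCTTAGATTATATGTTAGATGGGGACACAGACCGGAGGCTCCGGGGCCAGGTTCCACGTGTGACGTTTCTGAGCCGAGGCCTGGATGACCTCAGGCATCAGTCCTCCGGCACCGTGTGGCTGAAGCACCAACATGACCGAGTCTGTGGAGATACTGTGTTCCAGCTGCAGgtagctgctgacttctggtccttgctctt
Itga7 exon 16: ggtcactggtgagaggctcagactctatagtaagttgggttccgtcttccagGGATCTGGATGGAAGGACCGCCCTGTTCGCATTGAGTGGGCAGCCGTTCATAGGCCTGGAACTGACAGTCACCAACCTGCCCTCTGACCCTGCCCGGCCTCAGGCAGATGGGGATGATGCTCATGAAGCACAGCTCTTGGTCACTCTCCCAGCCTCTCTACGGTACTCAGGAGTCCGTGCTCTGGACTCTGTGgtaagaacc
Itga7 exon 26: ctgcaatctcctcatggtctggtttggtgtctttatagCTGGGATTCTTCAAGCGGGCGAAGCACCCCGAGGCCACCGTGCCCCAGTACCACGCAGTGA
Itgb1 exon 13: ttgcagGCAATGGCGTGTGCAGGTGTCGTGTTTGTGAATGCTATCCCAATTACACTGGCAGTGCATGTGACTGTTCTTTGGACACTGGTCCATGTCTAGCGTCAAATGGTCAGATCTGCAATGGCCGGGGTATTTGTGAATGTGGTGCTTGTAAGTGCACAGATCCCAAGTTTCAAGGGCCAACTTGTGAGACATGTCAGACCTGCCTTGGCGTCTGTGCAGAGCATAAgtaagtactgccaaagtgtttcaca
Itgb1 exon 14: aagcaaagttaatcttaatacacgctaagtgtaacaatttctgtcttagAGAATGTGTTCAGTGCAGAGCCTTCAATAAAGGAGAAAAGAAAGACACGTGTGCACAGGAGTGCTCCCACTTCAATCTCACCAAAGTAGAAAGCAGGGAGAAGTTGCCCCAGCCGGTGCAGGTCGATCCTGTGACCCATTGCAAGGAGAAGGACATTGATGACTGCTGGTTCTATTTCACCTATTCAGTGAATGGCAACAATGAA

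In the exon 13 and exon 16 regions of Itga7 and the exon 13 region of Itgb1, the whole exon lies between intron bases that end in ag and begin with gt. The Itga7 exon 1 sequence opens with the ATG start codon.

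Regions of the odd pool were found in 5 of the 8 genes (62.5%), namely Itgb1 with 6, Itga7 with 4, Itgb5 with 2, and Itga5 and Itga6 with 1 each. Among all protein-coding genes, 6.46% had an odd region. The even pool gave a region in 2 of the 8 genes (25.0%), Itga7 with 2 and Itgb1 with 1, against 0.996% of all protein-coding genes. Itga7 and Itgb1, the subunits of the α7β1 receptor, were thus the members with regions of both pools, a property of 0.697% of protein-coding genes. Itga3, Itgav and Itga11 had no region in either list. The 8 genes were chosen with earlier results of these data known, so their shares are a description and no test against all genes. In the whole family of 26 integrin genes, 19.2% had an odd region and 11.5% an even region. With regions of a score of at least 6 only, 0 even regions remained in the 8 genes, while 5 still had an odd region. The share of all protein-coding genes at this score minimum was not computed. The 6.46% and 0.996% refer to the lists without a minimum.

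Itga7 and Itgb1 were also 2 of the 25 genes (0.112%) with at least 4 odd regions. Itga7 was 1 of 20 genes (0.0894%) with at least 2 even regions. It met both conditions together with Fn1, Col3a1, Hsp90ab1, Scd2 and Vim, so that 6 genes (0.0268%) did so. These limits, and the other 5 genes, were chosen after the values were seen. The counts are not corrected for transcript length. Per kb of spliced transcript, the number of odd regions was 1.57 in Itgb1, 0.965 in Itga7, 0.654 in Itgb5, 0.241 in Itga6, whose region met no exon, and 0.228 in Itga5, and this order has no error to set it against.

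**Figure D1:**
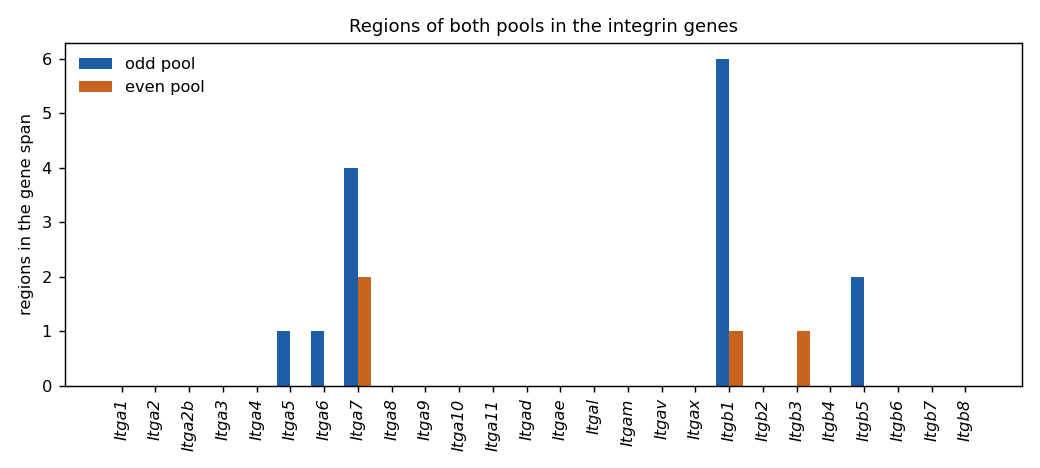
Number of regions (y axis) of the odd and even pools in each of the 26 integrin genes (x axis), with 1 library per pool and no error bars. Itgb1 with 6 and Itga7 with 4 odd regions stand above the rest, and 20 genes had no region.

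Each region carries a score, a whole number deposited with the lists whose unit is not given in the sources used here, so scores were read only within a list. Odd scores ran from 4 to 81 with a median of 6, and 613 regions had the lowest score. Even scores ran from 4 to 68 with a median of 5. How deeply either library was sequenced is unknown.

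Itga7 (ENSMUSG00000025348.7) encodes the integrin α7 subunit and spans chr10:128370869-128395333 on the plus strand. Its 26 exons make up 16.9% of this span in the transcript with the longest coding sequence, on which positions are given. The 4 odd regions had scores of 8, 6, 10 and 9 from the 5′ to the 3′ end of the gene, and both even regions had a score of 5. All 6 lay on exons, and they fell at both ends and in the middle of the gene.

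The first odd region (chr10:128370847-128371100, score 8) covered the start of transcription, with 22 bases before it, 176 bases of the 5′ UTR and 56 coding bases of exon 1. An even region (chr10:128371002-128371249, score 5) overlapped it by 99 bp and held 205 coding bases, or codons 1 to 69 of 1181. Both regions thus held the start codon, and the odd region reached codon 19. Codon counts here and below include the stop codon.

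In the middle of Itga7, only the odd pool gave regions. One (score 6) contained the whole of exon 13, 170 nt, with codons 567 to 623, and its midpoint was 10663 bp from the start of the gene. The other (score 10, the highest in Itga7) contained the whole of exon 16, 193 nt, with codons 712 to 776. Both are shown above, and the rest of each was intron directly next to the exon.

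At the 3′ end, an odd region (chr10:128394639-128394892, score 9) covered the first 216 bases of exon 26 and 38 bases of the intron before it. It overlapped an even region (chr10:128394713-128394960, score 5) by 180 bp, the longest overlap between the pools in an integrin gene. The even region reached the last codon, 1181, and 53 bases of the 3′ UTR. The reading of this exon depended on the transcript, since both midpoints were coding in 2 of the 5 protein-coding Itga7 transcripts and UTR in 3.

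Itgb1 (ENSMUSG00000025809.8) encodes the β1 subunit and spans chr8:131209554-131257100 on the plus strand. Its 16 exons make up 8.02% of the span. From the 5′ to the 3′ end, the 6 odd regions had scores of 5, 5, 10, 8, 20 and 15, and the even region had a score of 5. All 7 lay on exons, and the 2 highest odd scores of any integrin gene were in the last exon of Itgb1.

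Of the internal Itgb1 exons, exon 4 (chr8:131234174-131234427, score 5) and exon 6 (chr8:131237836-131238089, score 5) were covered to 90.6% and 96.2% of their length. The midpoints of the regions on exons 4 and 6 were each coding in 1 of the 3 protein-coding Itgb1 transcripts and UTR in 1. Exon 13 (score 10) was covered completely and exon 14 (score 8) to 88.0%. Together the regions on exons 13 and 14 held codons 570 to 712 of 799, so they were next to each other in the spliced transcript although an intron separates them in the genome.

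The region with a score of 20 (chr8:131255896-131256149) began in the last intron and held the last 66 coding bases, codons 778 to 799, and 161 bases of the 3′ UTR. Of all odd regions, 95.3% had a lower score and 89 had a higher one. The region with a score of 15 (chr8:131256614-131256867) lay wholly in the 3′ UTR, and 91.8% of odd regions scored lower. It overlapped the even region of Itgb1 (chr8:131256499-131256746, score 5), also wholly in the 3′ UTR, by 133 bp. The midpoints of these 2 overlapping regions were UTR in 1 of the 3 protein-coding Itgb1 transcripts.

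**Figure D2:**
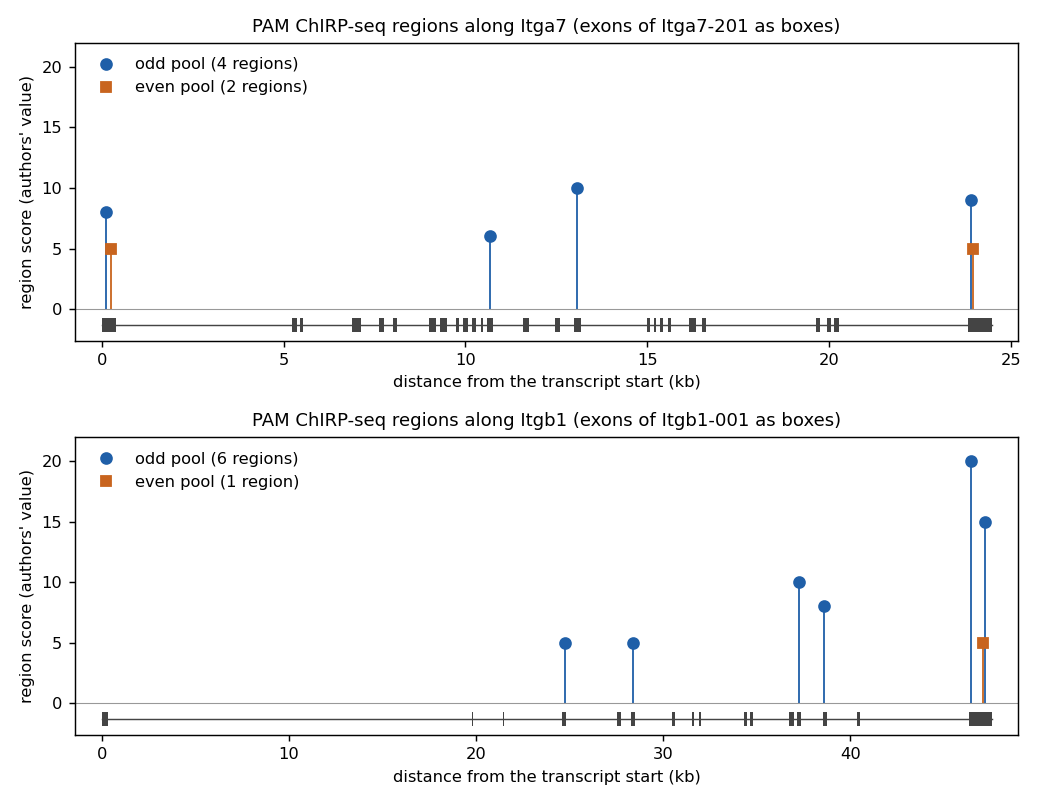
Score of each odd (circles) and even (squares) region in Itga7 and Itgb1 (y axis) against the distance of its midpoint from the transcript start in kb (x axis), with exons as boxes below. In Itga7 the 4 odd scores are 6 to 10, at both ends and in the middle of the gene. In Itgb1 the highest, 20 and 15, are in the last exon.

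Itgb5 (ENSMUSG00000022817.8) encodes the β5 subunit, which pairs with αv in a receptor for vitronectin. It spans chr16:33829751-33949239 on the plus strand and had 2 odd regions. The one on exon 10 of 15 (chr16:33919897-33920150) had the lowest score of the list, 4, and all 254 of its bases were coding. The one on exon 15 (chr16:33948804-33949057, score 7) held 115 coding bases, including the last codon, 817, and 139 bases of the 3′ UTR. Itgav, the α partner, had no region, and its nearest odd region was 794.7 kb away.

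Itga5 (ENSMUSG00000000555.6) encodes the α5 subunit of the fibronectin receptor and spans chr15:103174720-103197194 on the minus strand. Its region (chr15:103175176-103175429, score 7) was wholly in the 3′ UTR, in the last of 30 exons, with the midpoint 583 nt from the 3′ end. No even region was found in Itga5, the nearest being 1779 kb away.

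Itga6 (ENSMUSG00000027111.8) encodes the α6 subunit, which forms laminin receptors with β1 or β4, and spans chr2:71583673-71696473 on the plus strand. Its only region (chr2:71615378-71615631, score 8) met no exon of any of the 9 annotated transcripts. It was 9365 bp before the first base of the 4 protein-coding transcripts, within intron 2 of Itga6-007, a noncoding transcript. The region differed from the others in sequence as well, since 89.8% of its 254 bases were copies of the unit GAGGCA, 38 in all. Its first 96 bases (chr2:71615378-71615473, plus strand) are shown for this repeat, with the unit in capitals.
Itga6 region: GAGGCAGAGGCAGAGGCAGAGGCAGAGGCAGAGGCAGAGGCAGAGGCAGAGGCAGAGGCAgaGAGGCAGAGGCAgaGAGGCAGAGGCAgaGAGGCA

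Every 31-mer of this region occurred at least 2 times in mm9, with a median of 393.5 copies. In the other 13 odd regions and the 3 even regions, every 31-mer occurred 1 time. In the odd list, 16.5% of regions had a median of at least 2 copies, and 2.41% had at least 50% of their bases in the GAGGCA unit on either strand. The part that the repeat has in the score of the Itga6 region was not tested.

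Itga3 encodes the α3 subunit of a laminin receptor, Itgav the αv subunit of receptors for vitronectin and fibronectin, and Itga11 the α11 subunit of a collagen receptor. The nearest odd region was 13.1 kb from Itga3 and 764.3 kb from Itga11. The spliced transcripts of these 3 genes were 4710, 7054 and 4969 nt long, which was longer than those of Itga7 (4145 nt) and Itgb1 (3815 nt). At an unknown depth, a gene with no region cannot be called unbound.

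The scores of the 14 odd regions were 4 to 20 with a median of 8. Of them, 10 (71.4%) were above the median of the list, against 39.1% of all odd regions. The 3 even regions all had a score of 5, the median of the even list, and 121 even regions had a higher score. An overlap with the other pool was found for 3 of the 14 odd regions (21.4%), against 6.96% of the odd list, and for 3 of the 3 even regions (100%), against 42.6% of the even list.

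**Figure D3:**
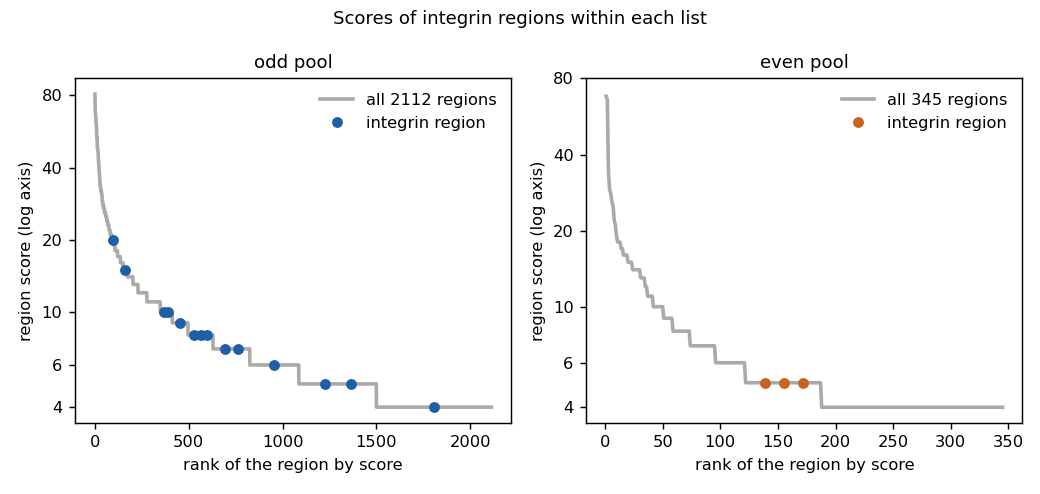
Score of each region (y axis, log scale) against its rank in its list (x axis), with a grey line for the whole list and points for the regions in integrin genes, where regions of equal score are spread over their ranks. The 14 odd points lie between 4 and 20, and the 3 even points lie at 5.

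By the midpoint, 13 of the 14 odd regions (92.9%; 95% Wilson interval from 68.5% to 98.7%) were on an exon. In the 5 genes with an odd region, exons made up 5.98% of the span. Of all 1771 odd regions in protein-coding genes, 85.2% were on an exon, a share inside the interval of the members. These intervals cover counting error only. They treat the 14 regions as independent, although 6 lay in Itgb1 and 4 in Itga7, all from 1 library. Counted in bases, 81.9% of the 3556 bases in the 14 odd regions and all 744 bases in the 3 even regions were exonic.

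Coding sequence held 8 of the 14 midpoints (57.1%; interval from 32.6% to 78.6%), against 34.1% of the 1771 odd regions in protein-coding genes, to which the shares that follow also refer. The 3′ UTR held 4 (28.6%; interval from 11.7% to 54.6%), against 49.4%. Introns of the transcripts used held 0 of 14, with an upper bound of 21.5%, against 11.6%. The last exon held 5 (35.7%; interval from 16.3% to 61.2%), against 59.6%, and last exons made up 22.1% of the spliced length of the 5 genes. For each of these classes, the share of the 1771 regions lay within the interval of the members. With several regions per gene and 1 library, this does not test a difference.

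Of the 7 odd regions on internal exons, 6 met an exon shorter than the region, from 170 to 239 nt, and covered at least 88.0% of it. The midpoints of the 7 regions were 9.5 to 62 bp from the middle of the exon, with a median of 21.5 bp. A region 254 bp wide with its midpoint on so short an exon covers much of it by its width alone. These values were not computed for the other odd regions, so they cannot be called particular to integrin genes. The GC content of the 14 odd regions was 35.4% to 65.0% with a median of 54.1%, and the median of the odd list was 49.6%. Itga7 and Itgb1 differed in this respect, as the odd regions of Itga7 had 56.3% to 59.8% GC and those of Itgb1 35.4% to 48.8%.

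**Figure D4:**
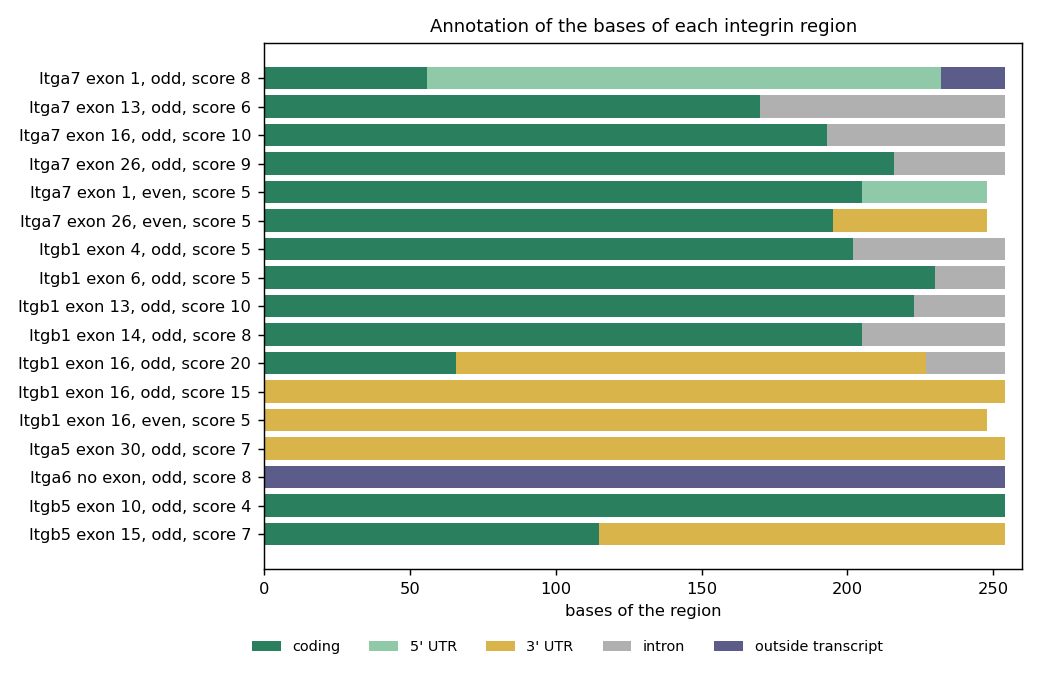
Number of bases (x axis) of each of the 17 regions (y axis) that are coding sequence, 5′ UTR, 3′ UTR, intron or outside the transcript, as stacked bars. Coding and UTR bases make up most of each bar except that of Itga6, which is wholly outside the transcript.

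In the integrin family of 26 genes, 5 (19.2%) had an odd region and 3 (11.5%) an even region, against 6.46% and 0.996% of all protein-coding genes. These were 3 of 18 α subunits and 2 of 8 β subunits in the odd pool. Itgb3, the β3 subunit, was the other family gene with a region, in the even pool (chr11:104485628-104485875, score 5). It was in an intron, and 40.3% of its bases were in matches to TGTG. The remaining 20 family genes, which include the leukocyte integrins, had no region.

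Among 24 matrix ligands of integrins, 11 (45.8%) had an odd region and 8 (33.3%) an even region, against 6.46% and 0.996% of all protein-coding genes. These 8 also had an odd region, and 0.697% of protein-coding genes had regions of both pools. Fn1, which encodes fibronectin, a ligand of α5β1, had 26 odd regions (highest score 81) and 10 even regions (highest score 25), the most of any protein-coding gene in either list. Col3a1, a fibrillar collagen gene, had 8 odd (highest 53) and 4 even regions (highest 13). Spp1, the gene of osteopontin, had 2 odd (highest 48) and 1 even region (score 16), and Col1a2 had 3 odd (highest 38) and 1 even region (score 11). The others with regions of both pools were Thbs1, Nid1, Col1a1 and Col4a2, with highest odd scores of 29, 18, 7 and 9. None of the 10 laminin chain genes on the list, which include ligands of α7β1, had a region in either pool. This subset was set apart after the values were seen. Of all 22380 protein-coding genes, 20868 also had no region in either list, so this absence does not set the laminin genes apart.

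Of 29 genes for integrin activators and adaptors, which link the cytoplasmic tails to actin and to kinases, 14 (48.3%) had an odd region and 1 (3.45%) an even region. This was Zyx, the gene of the focal adhesion protein zyxin, with odd scores of 12, 18 and 27 and an even score of 10. Flna, encoding the actin crosslinker filamin A, had 5 odd regions (highest score 14), and the highest odd scores of Vcl (vinculin) and Flnc (filamin C) were 11 and 10. Of 10 membrane partners, 7 (70.0%) had an odd region. Bsg, encoding basigin, had odd scores of 13 and 12 and an even score of 5, and the tetraspanin genes Cd81, Cd82 and Cd63 had highest odd scores of 14, 13 and 11. The highest odd score of Sdc4, encoding the proteoglycan syndecan-4, was also 11. Expression of these genes was not measured here, and the counts are a description beside the 6.46% of protein-coding genes with an odd and the 0.996% with an even region.

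By the number and the highest score of regions in each pool, Nisch and Tnnc1 (distance 0.641 each), Prkar1a (0.668), Srebf2 (0.704) and Gnb2l1 (0.710) were the genes most like Itga7 among 1507 genes. The distance was taken over 4 values on the log2(value + 1) scale. Nisch and Tnnc1 have overlapping annotated spans and share the same 4 odd and 1 even regions, so they count as 1 case. Prkar1a, for example, had 3 odd regions with a highest score of 10 and 1 even region with a score of 5.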

How the data were processed

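ASCs were subjected to ChIRP-seq for PAM with 2 probe pools, odd and even, and 1 library per pool was used here. Reads were uniquely mapped to mm9 with Bowtie2 and regions called with MACS2 by the authors, whose versions, thresholds and use of the input are not given in the sources used here. The lists deposited by the authors give regions of fixed width, each with a score, which was used within its own list and without a filter. Read depth is unknown. Deposited starts were taken as 0-based, and coordinates are printed 1-based. Genes, exons and coding sequence came from GENCODE M1. For each gene the transcript with the longest coding sequence, stop codon included, was used, and regions were classed at the midpoint. Copies of 31-mers were counted over mm9, and probe sequences came from the study's supplement. Shares have 95% Wilson intervals. Members and lists were chosen with earlier results of these data known. Named were all members, other family genes with a region, and from each further list the genes with regions of both pools and up to 4 genes, plus ties, with the highest odd score, and for likeness to Itga7 the 5 nearest genes. Scripts were tested on simulated data. Python 3.11.15, NumPy 2.4.6, SciPy 1.17.1, numba 0.67.0, matplotlib 3.10.9, pysam 0.24.0 and samtools 1.23.1 were used.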

Additional observations from a re-analysis of the deposited data

How the results depend on the processing

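The even counts rest on scores of 5. With scores of at least 6, which left 1086 odd and 121 even regions, 0 even regions, 0 genes with regions of both pools, 0 family genes with an even region and 0 overlapping pairs remained in the integrin genes, while 5 members still had an odd region. With scores of at least 10, which left 412 odd and 50 even regions, there were 4 odd regions in 2 members, the only family genes with an odd region, 0 even regions and 0 overlapping pairs, and 100% of the odd regions were on an exon. This follows from the lists being shortened. The shares of all protein-coding genes under these score minimums were not computed, so these counts have no background beside them. With regions of single-copy 31-mers only, an alternative chosen after seeing the data that removes the Itga6 region, 100% were on an exon. Of 79 alternative values, 64 stayed close to the value reported. For a count, close means within 1.5 times, and for a share it means within its Wilson interval. With few regions these intervals are wide. With scores of at least 10, the last exon held 50% of the odd regions, the 3′ UTR 50% and coding sequence 50%. The values reported were 35.7%, 28.6% and 57.1%, and all 3 counted as close. Some settings, such as 1-based starts, left every count unchanged. The 64 values are therefore no measure of robustness. The spans of protein-coding transcripts gave 13 odd regions in 4 members. No paired analysis was possible because a single library stood for each pool.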
